A study of Mus musculus with 8 samples.

Results

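Primitive and definitive endoderm genes were followed in mouse embryonic stem (ES) cells whose histone demethylases Jmjd2b or Jmjd2c had been knocked down. The set was defined by name as 33 genes that mark endoderm or act in it, and 32 of them could be measured among 18193 genes on the array. Trf was not analysed here because it had no probe set annotated to exactly 1 gene symbol. Each gene is given by 1 probe set, the one with the highest mean over all arrays.

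RNA was measured on 8 oligonucleotide arrays, 1 per sample. Cells infected with lentiviral short hairpin RNA against Jmjd2b gave 3 arrays, cells with hairpin RNA against Jmjd2c gave 2, and controls with hairpin RNA against GFP gave 3. All cells were male ES cells of strain 129S4/Svjae, grown in medium with leukemia inhibitory factor (LIF), which keeps ES cells from differentiating. All were infected, selected with puromycin and passaged before RNA was taken, so infection and selection were shared by the controls. The labels do not give the number or sequence of hairpins, nor whether replicates were infected or cultured separately. The p-values thus describe how far these particular samples vary, and that variation may be technical. In bulk RNA, fewer cells of a type and less RNA per cell cannot be told apart.

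Primitive endoderm is the layer of the early embryo that lines the cavity under the pluripotent cells and gives rise to visceral and parietal endoderm of the yolk sac. Definitive endoderm arises later, at gastrulation, and forms the lining of the gut with liver and pancreas. Visceral endoderm takes up maternal nutrients through large endocytic receptors and secretes carrier proteins such as apolipoproteins, and many of its genes are used again in liver, kidney and gut. Jmjd2b and Jmjd2c, named Kdm4b and Kdm4c on the array, remove methyl groups from lysine 9 and lysine 36 of histone H3.

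The genes whose calls were shared by both knockdowns include 3 of the endocytic machinery, Lrp2, Dab2 and Amn, and the windows around their annotated transcript starts are printed here so that their base composition can be seen beside their values. Each window runs from 250 bases before to 50 bases after a start in RefSeq (GRCm38.p6), 5′ to 3′ on the gene's strand, with CG dinucleotides in capitals. Lrp2 has 1 window (chr2:69585980-69586279, minus strand), Amn has 1 (chr12:111270846-111271145, plus strand), and Dab2 has 2, at chr15:6299539-6299838 and chr15:6386498-6386797 on the plus strand.
Lrp2: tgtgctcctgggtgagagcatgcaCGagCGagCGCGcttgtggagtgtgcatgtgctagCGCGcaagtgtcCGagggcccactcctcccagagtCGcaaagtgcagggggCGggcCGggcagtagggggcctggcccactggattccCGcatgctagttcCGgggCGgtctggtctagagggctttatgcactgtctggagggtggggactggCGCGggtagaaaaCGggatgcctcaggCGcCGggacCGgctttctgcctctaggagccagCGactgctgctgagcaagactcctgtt
Amn: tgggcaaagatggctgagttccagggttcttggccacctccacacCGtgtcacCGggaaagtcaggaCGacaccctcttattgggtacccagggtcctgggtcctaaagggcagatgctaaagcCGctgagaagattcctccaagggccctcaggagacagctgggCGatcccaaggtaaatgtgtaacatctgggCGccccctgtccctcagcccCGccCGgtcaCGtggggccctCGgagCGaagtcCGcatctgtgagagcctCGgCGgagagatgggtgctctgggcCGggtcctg
Dab2 window 1: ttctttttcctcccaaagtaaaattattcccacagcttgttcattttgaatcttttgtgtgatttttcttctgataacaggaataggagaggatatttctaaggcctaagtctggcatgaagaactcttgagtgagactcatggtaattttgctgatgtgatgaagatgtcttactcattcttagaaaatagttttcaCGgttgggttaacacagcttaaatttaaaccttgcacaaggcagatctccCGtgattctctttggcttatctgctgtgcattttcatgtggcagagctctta
Dab2 window 2: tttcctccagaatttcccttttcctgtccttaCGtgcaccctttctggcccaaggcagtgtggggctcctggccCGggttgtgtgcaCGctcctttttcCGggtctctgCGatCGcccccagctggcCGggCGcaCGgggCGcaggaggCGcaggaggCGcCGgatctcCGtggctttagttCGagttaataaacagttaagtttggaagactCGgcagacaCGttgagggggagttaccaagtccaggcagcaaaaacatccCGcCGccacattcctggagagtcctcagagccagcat
The Lrp2 window held 20 CG dinucleotides, the Amn window 15, the first Dab2 window 2 and the second 19. Over 32851 windows of all genes the median was 7, with quartiles of 3 and 20. In total 39 windows of 26 of the endoderm genes were found, and 10 of them had at least 20 CG dinucleotides. Both strands were searched for the GATA motif AGATAA and the forkhead motif TGTTTAC. The GATA motif stood in 3 of the 39 windows (Dab2 window 1, the third of Foxa2 and the first of Hnf4a) and in 11.2% of all windows. The forkhead motif stood in 3 (the third of Apoe, that of Foxa1 and the first of Rbp4) and in 3.65% of all windows. A match is a run of letters and not a measured site.

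The target of each hairpin was lower than in the controls. Kdm4b had intensities of 50.3, 29.3 and 17.0 in Jmjd2b knockdown cells, against 421, 339 and 643 in the controls (limma, adjusted p = 7.79e-05). Kdm4c had 142 and 469 in Jmjd2c knockdown cells, against 1332, 1300 and 1210 in the controls (limma, adjusted p = 0.00687), so the 2 Jmjd2c arrays differed in the level of their target. The other demethylase was lower too: Kdm4c had 752, 800 and 650 in Jmjd2b knockdown cells, and Kdm4b had 245 and 285 in Jmjd2c knockdown cells, below all controls. Neither passed the test (limma, adjusted p = 0.102 and 0.178), but Kdm4c did in a fit of the Jmjd2b and control arrays alone (adjusted p = 0.000278). Between the knockdowns Kdm4c was not called (-1.43, Jmjd2c minus Jmjd2b, limma, adjusted p = 0.114). Arrays also differed in ways that the groups do not explain. Control arrays 1 and 2 and Jmjd2b array 2 had 412 to 455 values of exactly 1 and at most 2 below it, and the other 5 arrays had 172 to 241 values below 1, a difference called array type here. Identical values shared between arrays split those 5 further, so that 3 array sets arose: the 3 arrays with many values of exactly 1, control array 3 with Jmjd2b array 1, and Jmjd2b array 3 with both Jmjd2c arrays. Jmjd2b and control arrays can therefore be compared within 2 sets. Each of these differences rests on 1 Jmjd2b array, and Jmjd2b array 3 enters neither. No control shared a set with the Jmjd2c arrays. A fit with array set as a block thus reaches the comparison of Jmjd2c knockdown with control only through the Jmjd2b arrays. In that fit the change of Kdm4c with Jmjd2c knockdown was -1.96 and was not called (limma, adjusted p = 0.273). The ratio of 3′ to 5′ actin probe sets, a measure of RNA integrity, lay between 1.31 and 1.42 for Jmjd2b knockdown, between 1.43 and 1.48 for Jmjd2c knockdown and between 1.45 and 1.63 for the controls. Its part in the results was not tested.

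All 8 ES cell markers (among them Pou5f1, Sox2 and Nanog) had intensities of at least 1595 in every array. Their summed level was 47510 to 50460 in the Jmjd2b knockdown, 50470 to 51390 in the Jmjd2c knockdown and 58540 to 58980 in the controls, and 5 fell with Jmjd2b knockdown. That is 62.5% of the markers, against 12.9% of all genes. With Jmjd2c knockdown 2 fell, Tdgf1 and Zfp42, or 25%, against 5.25% of all genes. Of the defining markers of primitive endoderm, Gata4, Gata6, Sox17 and Sox7 were at or under 34.9 in all arrays except Sox7 at 91.4 in Jmjd2c array 2. None of these 4 passed the test in either knockdown, and of the 5 defining markers Foxa2 did, with Jmjd2b knockdown. The summed level of the 5 was 160 to 214 in Jmjd2b knockdown cells, 103 and 277 in Jmjd2c knockdown cells and 105 to 133 in the controls. Of these sums Foxa2 alone gave 78.5 to 120 in Jmjd2b knockdown cells, 17.4 and 121 in Jmjd2c knockdown cells and 10.6 to 16.1 in the controls. With Jmjd2b knockdown 1 of the 5 changes was positive and 4 were negative, with a median of -0.09. With Jmjd2c knockdown 2 were positive and 3 negative, with a median of -0.09. The set is named for where these genes are used in the embryo, and the values do not settle whether any endoderm cells were present. Intensities do not show whether a dim probe set was detected, since no detection calls were used here.

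Among the 32 genes, 8 rose and 3 fell with Jmjd2b knockdown in limma at an adjusted p under 0.05. These are 25% and 9.38% of the set, against 11.5% and 12.9% of all genes (24.4% of all genes in either direction). This fit did not pair arrays, and with replicate number as a block 7 rose and 2 fell with Jmjd2b knockdown. With Jmjd2c knockdown 4 rose and 1 fell, or 12.5% and 3.12%, against 4.28% and 5.25% of all genes (9.53% in either direction). Both shares of falls were near or under the background. The set was chosen with earlier results of these data known, so its shares of rises are no independent comparison with all genes. The set had no common direction: its median log2 change was 0.03 with Jmjd2b knockdown and -0.01 with Jmjd2c knockdown, against -0.03 and -0.02 over all genes, and 16 genes had a positive change in each. The groups of arrays did not overlap, with the knockdown higher, for 8 genes with Jmjd2b knockdown and 7 with Jmjd2c knockdown, where 20.9% and 17.4% of all genes did so. With the knockdown lower, it was 6 and 7 genes, where 23.8% and 21.2% of all genes did so. The 2 comparisons share their 3 control arrays, so likeness between them is no independent support. Cited1, Dab2, Lrp2 and Spink1 rose and Amn fell in both, and 21 genes were called in neither. The shares of all genes called in both or in neither were not counted. Whether these counts differ from the background thus cannot be said.

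**Figure D1:**
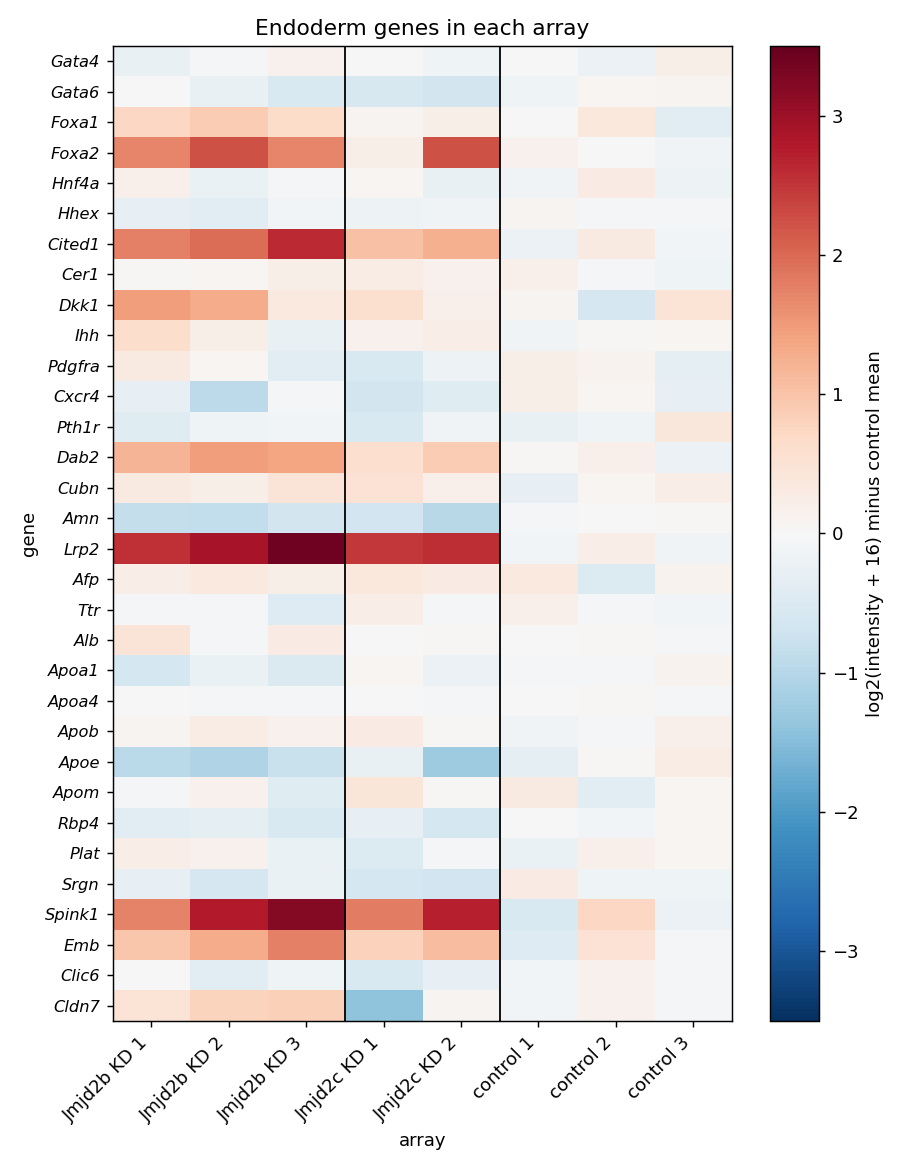
Level of the 32 endoderm genes (rows, by role) in each of the 8 arrays (columns), as log2(intensity + 16) minus the mean of the 3 control arrays. Lrp2, Spink1 and Cited1 are higher in every knockdown array, Foxa2 is high in all Jmjd2b arrays and in only 1 of the 2 Jmjd2c arrays, and most rows are pale throughout.

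Of the 4 genes of the endocytic receptor machinery, 2 rose and 1 fell in each knockdown, or 50% and 25%. Over all genes 11.5% rose and 12.9% fell with Jmjd2b knockdown, and 4.28% and 5.25% with Jmjd2c knockdown. The roles hold few genes of a set chosen with earlier results known, so their shares are no independent comparison. Lrp2, which encodes megalin, a giant receptor that takes up vitamin carriers and other ligands at the apical surface of visceral endoderm and kidney tubules, had the largest change of the set on the scale of log2(intensity + 16), which understates changes of dim genes. It had intensities of 391, 495 and 711 in Jmjd2b knockdown cells and 365 and 396 in Jmjd2c knockdown cells, against 48.5, 65.1 and 46.9 in the controls (probe set 1452320_at). All 5 knockdown arrays lay above all 3 controls. The change was 2.95 ± 0.21 (SE; limma, adjusted p = 3.99e-05) with Jmjd2b knockdown. With Jmjd2c knockdown it was 2.52 ± 0.23 (SE; limma, adjusted p = 0.00109). Within the 2 array sets that hold both groups, the Jmjd2b difference was 2.82 and 2.69. With array set as a block, the Jmjd2c change was 1.89 and was not called (limma, adjusted p = 0.0653).

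Dab2, an adaptor protein that links megalin to the endocytic coat and is needed in visceral endoderm, also rose in both knockdowns. Its intensities were 112, 139 and 130 in Jmjd2b knockdown cells and 68.4 and 87.6 in Jmjd2c knockdown cells, against 40.9, 46.6 and 32.5 in the controls. The 3 groups of arrays did not overlap, with the Jmjd2c arrays between the others. The change was 1.35 ± 0.16 (SE; limma, adjusted p = 0.000327) with Jmjd2b knockdown, and 1.37 and 1.40 within the array sets. It was 0.75 ± 0.17 (SE; limma, adjusted p = 0.0269) with Jmjd2c knockdown, where the call was lost without control array 1, control array 3 or Jmjd2c array 2. The call was also lost with array set as a block (0.74, adjusted p = 0.29) and in a fit of the Jmjd2c and control arrays alone (adjusted p = 0.0657). These values rest on 1 of 4 Dab2 probe sets.

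Amn encodes amnionless, the small membrane protein that holds the receptor cubilin at the cell surface, and it moved the other way. Its intensities were 45.3, 44.3 and 53.9 in Jmjd2b knockdown cells and 52.1 and 39.9 in Jmjd2c knockdown cells, against 88.4, 93.4 and 96.6 in the controls. All knockdown arrays lay below all controls, at about the same level in both knockdowns. It fell by 0.77 ± 0.14 (SE; limma, adjusted p = 0.00293) with Jmjd2b knockdown on the log2 scale, and by 0.82 ± 0.15 (SE; limma, adjusted p = 0.0119) with Jmjd2c knockdown. Within the array sets the Jmjd2b difference was -0.83 and -0.88. The Jmjd2c call was lost without control array 3 (limma, adjusted p = 0.0565) and with array set as a block (-1.03, adjusted p = 0.175). Cubn, which encodes cubilin itself, lay between 10.2 and 29.3 in all 8 arrays and was not called in either knockdown.

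Of the 7 transcription regulators, 3 rose with Jmjd2b knockdown and 1 with Jmjd2c knockdown. These are 42.9% and 14.3%, against 11.5% and 4.28% of all genes. Cited1, a coactivator that binds CBP and p300 and was described in visceral endoderm and trophoblast, was the one called in both. It had intensities of 67.6, 80.5 and 136 in Jmjd2b knockdown cells and 34.3 and 42.5 in Jmjd2c knockdown cells, against 5.4, 14.8 and 7.07 in the controls. Every Jmjd2b array was above every Jmjd2c array, and every Jmjd2c array was above every control. The change was 2.11 ± 0.23 (SE; limma, adjusted p = 0.000257) with Jmjd2b knockdown, and 1.91 and 1.86 within the array sets. With Jmjd2c knockdown it was 1.13 ± 0.26 (SE; limma, adjusted p = 0.0246), a call lost without control array 1, control array 3 or Jmjd2c array 2, and with array type as a block (adjusted p = 0.0883). With array set as a block that change was 0.41 (adjusted p = 0.62).

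Foxa2, a forkhead factor of both visceral and definitive endoderm, separated the 2 Jmjd2c arrays. Its intensities were 79.4, 120 and 78.5 in Jmjd2b knockdown cells and 17.4 and 121 in Jmjd2c knockdown cells, against 16.1, 12.6 and 10.6 in the controls. The second Jmjd2c array thus lay just above the Jmjd2b range, and the first was near the controls. With Jmjd2b knockdown the change was 1.88 ± 0.41 (SE; limma, adjusted p = 0.0082), and 2.17 and 1.84 within the array sets. With Jmjd2c knockdown it was 1.22 ± 0.46 (SE) and was not called (limma, adjusted p = 0.132). Left to 1 array, the Jmjd2c change was 2.24 without array 1 and 0.20 without array 2.

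Foxa1, a relative of Foxa2 that acts in gut and liver endoderm, rose with Jmjd2b knockdown. Its intensities were 54.7, 62.2 and 50.5 in Jmjd2b knockdown cells and 29.5 and 32.8 in Jmjd2c knockdown cells, against 26.6, 38.3 and 17.0 in the controls. The Jmjd2c arrays lay inside the range of the controls. The Jmjd2b change was 0.76 ± 0.18 (SE; limma, adjusted p = 0.0133), and the call was lost without control array 3 (adjusted p = 0.0535) or Jmjd2b array 2 (adjusted p = 0.06). Within the array sets the difference was 0.70 and 1.10. With Jmjd2c knockdown the change was 0.15 ± 0.20 (SE; limma, adjusted p = 0.715).

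The other 4 regulators were called in neither knockdown. Gata4 and Gata6, zinc-finger factors that set up primitive endoderm, lay between 18.7 and 32.01 and between 13.2 and 32.6. Gata6 had 14.8 and 13.2 in the Jmjd2c knockdown, against 25.4, 31.8 and 32.6 in the controls, with a change of -0.61 ± 0.17 (SE; limma, adjusted p = 0.0553). Hnf4a, a nuclear receptor of visceral endoderm and liver, lay between 29.8 and 51.2. Hhex, a homeobox factor of anterior visceral endoderm and of the liver and thyroid buds, was brighter, at 169 to 208 in Jmjd2b knockdown cells and 197 and 205 in Jmjd2c knockdown cells, against 216 to 238 in the controls. Its changes were -0.25 (limma, adjusted p = 0.192) and -0.14 (adjusted p = 0.613).

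Among the 6 genes of signals, their inhibitors and receptors, 1 rose with Jmjd2b knockdown (16.7%, against 11.5% of all genes). Dkk1, a secreted Wnt inhibitor of anterior visceral endoderm, had 69.0, 59.6 and 22.9 in Jmjd2b knockdown cells and 29.1 and 19.0 in Jmjd2c knockdown cells, against 17.0, 4.67 and 27.1 in the controls. The groups overlapped, because Jmjd2b array 3 lay below control array 3. The Jmjd2b change was 1.03 ± 0.33 (SE; limma, adjusted p = 0.0444), and 1.53 and 0.98 within the array sets. Neither of these sets holds Jmjd2b array 3, and within the array type that does, the difference was 0.42. With replicate number as a block the adjusted p was 0.0531, and 10 of 19 alternatives kept the call. Leaving out control array 1, control array 2, Jmjd2b array 1 or Jmjd2b array 2 ended it, with changes of 0.74 to 1.08.

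The other signalling genes were dim and were called in neither knockdown. Cer1, a secreted inhibitor of Nodal and bone morphogenetic proteins, stayed between 6.43 and 14.1. Ihh, the hedgehog ligand of visceral endoderm, lay between 37.2 and 81.3. Pdgfra, a growth factor receptor used to mark primitive endoderm, lay between 10.2 and 31.7. Pth1r, a hormone receptor of parietal endoderm, lay between 21.5 and 55.9. Cxcr4, a chemokine receptor used to sort definitive endoderm, had 32.1, 15.4 and 41.6 in Jmjd2b knockdown cells and 21.7 and 28.1 in Jmjd2c knockdown cells, against 52.6, 46.4 and 32.2 in the controls. Its Jmjd2c arrays lay below the controls, but the change of -0.53 ± 0.25 (SE) was not called (limma, adjusted p = 0.238).

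**Figure D2:**
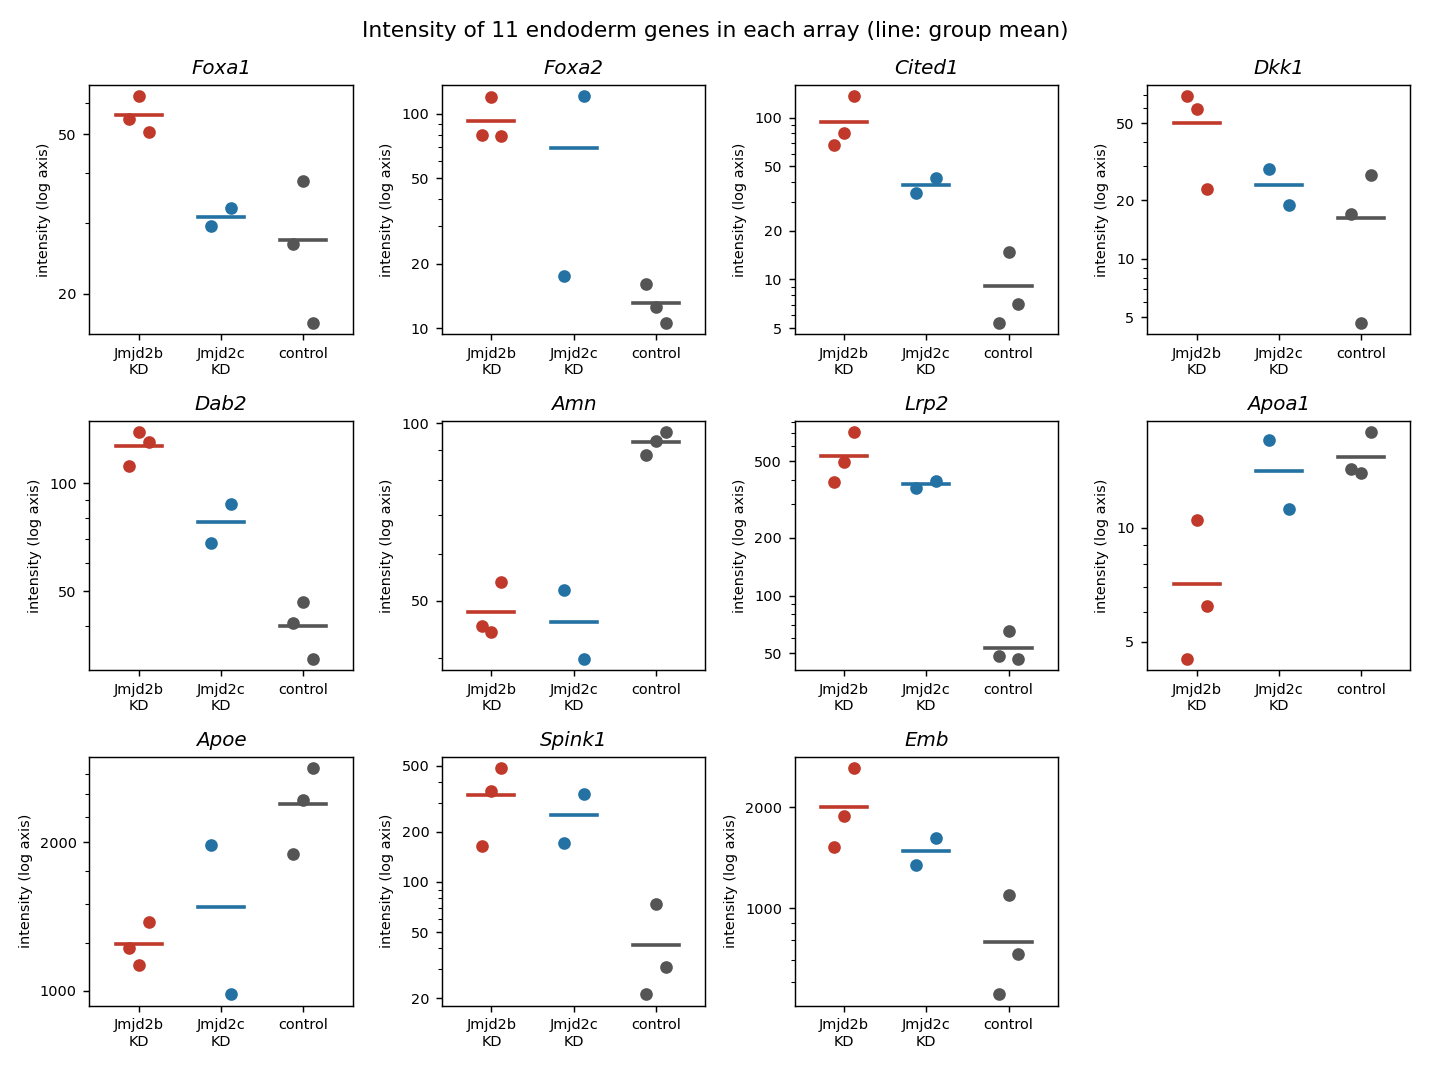
Intensity (log axis, different in each panel) of the 11 endoderm genes called in at least 1 knockdown, with 1 point per array and a line at the group mean. Lrp2, Dab2, Cited1 and Spink1 are higher and Amn is lower in all 5 knockdown arrays than in the controls, while the Dkk1 groups overlap and the 2 Jmjd2c arrays of Foxa2 lie apart.

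The 9 secreted carrier proteins measured, products typical of visceral endoderm and liver, gave no rise in either knockdown. Over all genes 11.5% rose with Jmjd2b and 4.28% with Jmjd2c knockdown. With Jmjd2b knockdown 2 carriers fell, or 22.2%, against 12.9% of all genes. Apoe, an apolipoprotein that carries lipid to cells, was the brightest of the carriers. Its intensities were 1221, 1130 and 1377 in Jmjd2b knockdown cells and 1970 and 984 in Jmjd2c knockdown cells, against 1894, 2438 and 2825 in the controls. The Jmjd2b arrays lay below all controls, and the 2 Jmjd2c arrays lay on both sides of the lowest control. The change was -0.92 ± 0.23 (SE; limma, adjusted p = 0.0159) with Jmjd2b knockdown, and -0.92 and -1.20 within the array sets. That call was lost without control array 2 (adjusted p = 0.0504), control array 3 (adjusted p = 0.0775) or Jmjd2b array 2 (adjusted p = 0.0671), and with array set as a block (adjusted p = 0.051). With Jmjd2c knockdown the change was -0.75 ± 0.26 (SE; limma, adjusted p = 0.1), and it was -1.25 without Jmjd2c array 1 and -0.26 without array 2.

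Apoa1, the main protein of high-density lipoprotein, passed the test at the edge of the measurable range. Its intensities were 4.52, 10.5 and 6.23 in Jmjd2b knockdown cells and 17.0 and 11.2 in Jmjd2c knockdown cells, against 14.3, 13.9 and 17.9 in the controls. The Jmjd2b arrays lay below all controls, but every value was far under the array median. The Jmjd2b change was -0.45 ± 0.14 (SE; limma, adjusted p = 0.0476), with -0.18 and -0.72 within the array sets, and 7 of 19 alternatives kept the call. It was not called with replicate number as a block (adjusted p = 0.0794), and it was 0.16 (adjusted p = 0.437) when 1419232_a_at took the place of the probe set used, which is of a kind (_x_at) that can hybridize to other transcripts.

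The other carriers were called in neither knockdown. Rbp4, the retinol carrier of blood and yolk sac, had 76.1, 79.7 and 67.6 in Jmjd2b knockdown cells and 83.5 and 62.7 in Jmjd2c knockdown cells, against 106, 96.0 and 111 in the controls. All knockdown arrays lay below the controls, with changes of -0.41 ± 0.14 (SE; limma, adjusted p = 0.0604) and -0.44 ± 0.16 (SE; limma, adjusted p = 0.115). Of 20 alternatives 8 called the Jmjd2b change of Rbp4, among them a fit of the Jmjd2b and control arrays alone (limma, adjusted p = 0.0289). Ttr, which carries thyroid hormone, lay between 29.2 and 57.7. Afp, Alb and Apom, plasma proteins of fetal or adult liver, stayed at or under 24.9 in all arrays. Apob, the scaffold of low-density lipoprotein, stayed at or under 32.4, and Apoa4, an apolipoprotein of gut and liver, at or under 2.14.

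Of the 3 genes of proteases, their inhibitors and granules, 1 rose in both knockdowns. That is 33.3% in each, where 11.5% of all genes rose with Jmjd2b and 4.28% with Jmjd2c knockdown. Spink1, a secreted inhibitor of trypsin known from pancreas and gut, had 165, 354 and 484 in Jmjd2b knockdown cells and 171 and 336 in Jmjd2c knockdown cells, against 21.1, 73.6 and 30.8 in the controls. All knockdown arrays lay above the controls, and the spread inside each group was wide. The change was 2.58 ± 0.42 (SE; limma, adjusted p = 0.0019) with Jmjd2b knockdown, and 2.68 and 1.95 within the array sets. With Jmjd2c knockdown it was 2.25 ± 0.47 (SE; limma, adjusted p = 0.0178), a call lost without control array 1, control array 3 or Jmjd2c array 2. With array set as a block that change was 1.40 (adjusted p = 0.44). Plat, the plasminogen activator made by parietal endoderm, lay between 27.2 and 54.6. Srgn, the core proteoglycan of secretory granules, had 14.2, 8.79 and 15.4 in Jmjd2b knockdown cells and 8.27 and 7.44 in Jmjd2c knockdown cells, against 29.3, 17.5 and 17.8 in the controls. All knockdown arrays of Srgn were below the controls, but neither change passed the test (limma, adjusted p = 0.12 and 0.0507). Of 18 alternatives 3 called its Jmjd2c change.

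Of the 3 membrane proteins, 1 rose with Jmjd2b knockdown (33.3%, against 11.5% of all genes). Emb, which encodes embigin, an adhesion protein of the immunoglobulin family and a partner of lactate transporters, had 1522, 1879 and 2618 in Jmjd2b knockdown cells and 1340 and 1620 in Jmjd2c knockdown cells, against 552, 1095 and 729 in the controls. All knockdown arrays lay above the controls. The change was 1.34 ± 0.25 (SE; limma, adjusted p = 0.00362) with Jmjd2b knockdown, and 1.25 and 1.05 within the array sets. With Jmjd2c knockdown it was 0.94 ± 0.28 (SE; limma, adjusted p = 0.0623), which missed the threshold.

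Cldn7, a tight junction protein of epithelia including gut, was the gene of the set with the lowest adjusted p between the knockdowns. Its intensities were 183 and 552 in Jmjd2c knockdown cells, 721, 893 and 928 in Jmjd2b knockdown cells, and 476, 575 and 498 in the controls. The Jmjd2b arrays lay above all others, while 1 Jmjd2c array lay among the controls and the other far below them. No comparison passed the test, with changes of 0.69 ± 0.31 (SE; limma, adjusted p = 0.137) for Jmjd2b and -0.66 ± 0.34 (SE; limma, adjusted p = 0.284) for Jmjd2c against the control. The Jmjd2b change was called in a fit of the Jmjd2b and control arrays alone (adjusted p = 0.00189) and without either Jmjd2c array (adjusted p = 0.00191 and 0.00207). Against the control the Jmjd2c change was -1.42 (adjusted p = 0.00297) without Jmjd2c array 2 and 0.10 without array 1. Clic6, a chloride channel family protein, had 111, 82.2 and 99.5 in Jmjd2b knockdown cells and 73.6 and 90.0 in Jmjd2c knockdown cells, against 106, 127 and 107 in the controls, and was called in neither.

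**Figure D3:**
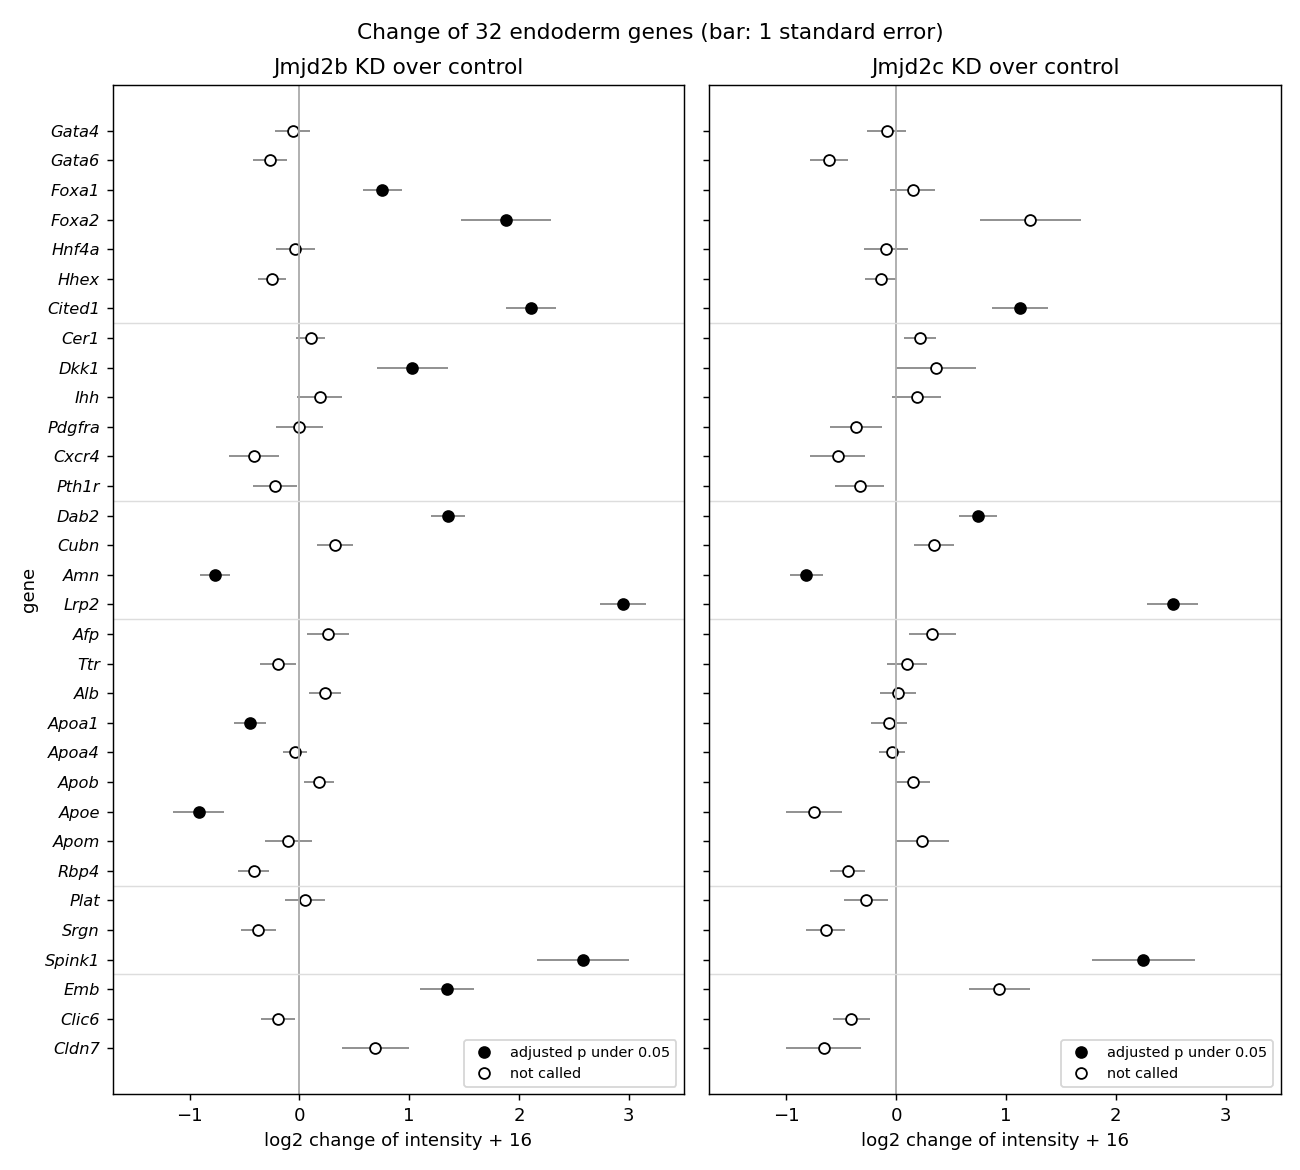
Change of each of the 32 endoderm genes on the scale of log2(intensity + 16) in the Jmjd2b knockdown (left) and the Jmjd2c knockdown (right) over the same 3 controls, with bars of 1 standard error and filled points where limma's adjusted p was under 0.05. There are 11 filled points on the left and 5 on the right, led by Lrp2 and Spink1 in both.

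Between the knockdowns none of the 32 genes was called in limma, where 0.467% of all genes were. At an unadjusted p under 0.05 there were 5 of 32, where 13% of all genes passed, and the lowest adjusted p was 0.121, for Cldn7. Of those 5, Foxa1, Cited1, Dab2 and Cldn7 were lower and Apoa1 was higher with Jmjd2c knockdown. The intervals of these 5 exclude 0 because that p chose them. Cited1 differed by -0.98 on the log2 scale (95% interval -1.55 to -0.41, Jmjd2c minus Jmjd2b). Foxa1 differed by -0.61 (-1.06 to -0.15) and Dab2 by -0.61 (-0.99 to -0.22). For Cited1, Foxa1 and Dab2 all Jmjd2c arrays lay below all Jmjd2b arrays, as they did for 6 of the 32 genes and for 13.7% of all genes. Within the 1 array set that holds both knockdowns, which has only 1 Jmjd2b array, the differences were -1.48, -0.50 and -0.64 for Cited1, Foxa1 and Dab2. For the genes called in both knockdowns with overlapping arrays, the intervals include 0: Lrp2 -0.43 (-0.94 to 0.09), Spink1 -0.33 (-1.38 to 0.72) and Amn -0.05 (-0.39 to 0.30). These widths do not show that the knockdowns act alike. Cldn7 differed by -1.35 (-2.12 to -0.59), and without Jmjd2c array 2 it and Foxa2 were called, at -2.11 (limma, adjusted p = 0.0013) and -1.68 (limma, adjusted p = 0.0104).

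The array carried 65 probe sets for the 32 genes, and 18 genes had more than 1, so some changes could be read again on other probes. For Lrp2, probe set 1427133_s_at had 368, 439 and 685 in Jmjd2b knockdown cells and 299 and 533 in Jmjd2c knockdown cells, against 17.0, 42.4 and 17.2 in the controls. This was the same direction as the probe set used, whereas 1445901_at lay between 34.5 and 65.3 in all arrays. In the controls alone 1445901_at was the brighter, with a mean of 55.35 against 53.49 for the probe set used. The knockdown arrays thus decided which Lrp2 probe set was used. For Emb, 1415857_at had 1016, 1421 and 2052 in Jmjd2b knockdown cells and 805 and 1151 in Jmjd2c knockdown cells, against 407, 817 and 619 in the controls. It too was higher in all Jmjd2b arrays than in the controls. For Dab2, only 1420498_a_at changed. That probe set was also brightest only through the knockdown arrays. In the controls its mean was 40.02, against 59.56 for 1423805_at. The other 3 Dab2 probe sets had Jmjd2b changes of -0.10, -0.05 and -0.07, and the mean of all 4 was 0.28 (limma, adjusted p = 0.0657) with Jmjd2b knockdown and 0.17 (adjusted p = 0.391) with Jmjd2c knockdown. Which transcripts these probe sets read was not examined.

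**Figure D4:**
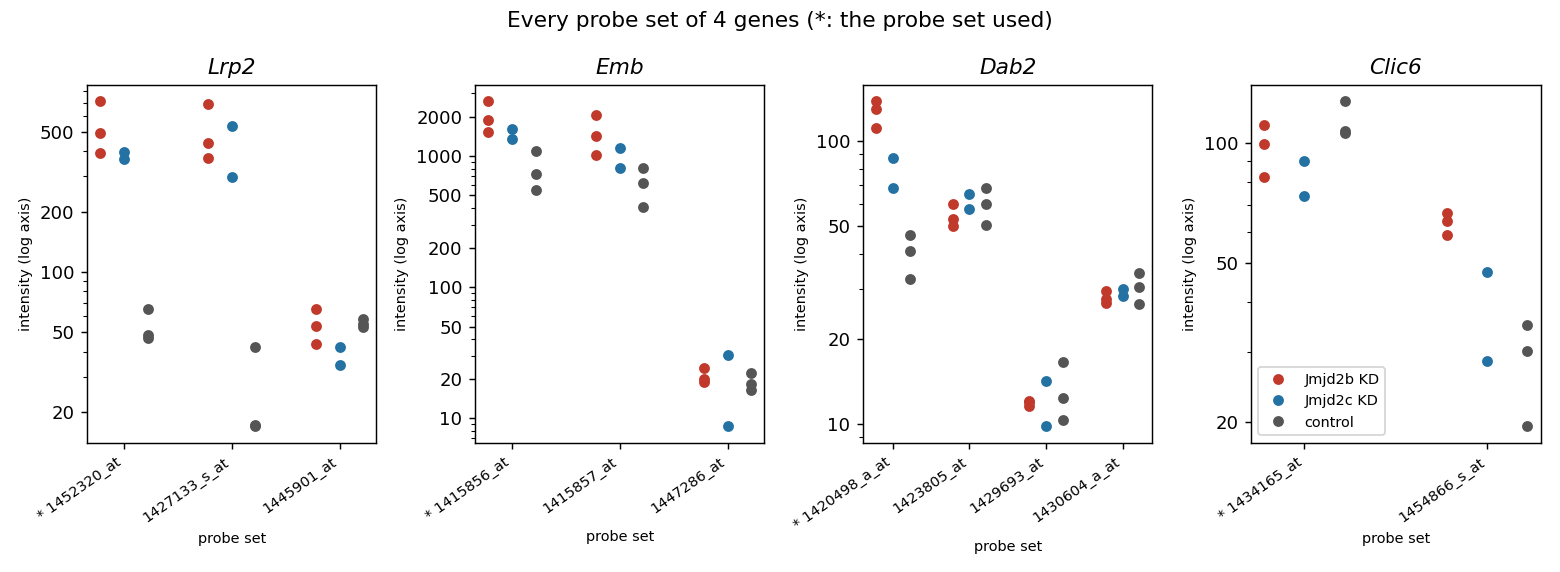
Intensity (log axis, different in each panel) of every probe set of Lrp2, Emb, Dab2 and Clic6, with 1 point per array and a star at the probe set used. For Lrp2 and Emb the second probe set repeats the rise, for Dab2 the other 3 show none, and the second probe set of Clic6 is higher in the Jmjd2b arrays although the one used is not. Levels are not comparable between probe sets.

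Some markers of other cell types moved with the groups, and others did not. With Jmjd2b knockdown, fibroblast and trophoblast markers moved in both directions. The summed level of the 13 fibroblast markers measured was 627 to 658 in Jmjd2b knockdown cells, 580 to 671 in Jmjd2c knockdown cells and 804 to 900 in the controls. Pdgfrb and Thy1 fell in both knockdowns and Loxl1 fell with Jmjd2c knockdown. Twist1 rose in both and Col1a1 rose with Jmjd2b knockdown. With Jmjd2b knockdown 15.4% of these markers rose and 15.4% fell, near the 11.5% and 12.9% of all genes. Their median log2 change was -0.01 with Jmjd2b knockdown and 0.14 with Jmjd2c knockdown. With Jmjd2c knockdown 7.69% rose and 23.1% fell, against 4.28% and 5.25% of all genes. The sum of 6 blood cell markers was 472 to 570 in Jmjd2b knockdown cells, 602 to 731 in Jmjd2c knockdown cells and 936 to 1151 in the controls. Laptm5 and Coro1a, which made up most of each sum, fell in both knockdowns. They are 33.3% of the blood cell markers, against 12.9% of all genes with Jmjd2b knockdown and 5.25% with Jmjd2c knockdown. Tyrobp lay above the controls in all knockdown arrays but was not called. The median change of the blood cell markers was 0.07 with Jmjd2b knockdown, where 3 of 6 changes were negative. With Jmjd2c knockdown it was -0.245, where 4 of 6 were negative.

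The sums of 8 trophoblast markers overlapped, at 3520 to 4233 in Jmjd2b knockdown cells, 3450 to 4296 in Jmjd2c knockdown cells and 3422 to 4030 in the controls, and most of each sum was Tfap2c. Single markers moved by more than the sum. Cdx2, a factor of trophoblast and hindgut, had 331, 532 and 464 in Jmjd2b knockdown cells and 28.6 and 18.6 in Jmjd2c knockdown cells, against 5.63, 5.94 and 1.14 in the controls. Its change was 4.49 ± 0.20 (SE; limma, adjusted p = 6.97e-06) with Jmjd2b knockdown and 0.97 ± 0.22 (SE; limma, adjusted p = 0.0255) with Jmjd2c knockdown. Eomes and Gata3 also rose with Jmjd2b knockdown (2.12 and 1.53), and Tfap2c and Krt7 fell. With Jmjd2b knockdown 37.5% of the trophoblast markers rose and 25% fell, against 11.5% and 12.9% of all genes. With Jmjd2c knockdown 12.5% rose, against 4.28% of all genes. Cdx2 was thus far higher in the Jmjd2b arrays than in the Jmjd2c arrays. The part of any of these markers in the results was not tested.

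A wider list of 36 endoderm and mesendoderm genes outside the set, of which 34 were measured, was read in the same fit. It too was chosen with earlier results of these data known, so its shares are no independent comparison. With Jmjd2b knockdown 9 rose and 3 fell, or 26.5% and 8.82%, against 11.5% and 12.9% of all genes. With Jmjd2c knockdown 2 rose and 2 fell, or 5.88% each, against 4.28% and 5.25% of all genes, so those shares were near the background. Between the knockdowns none was called. Fst, which encodes the activin-binding protein follistatin, had 1652, 2826 and 835 in Jmjd2b knockdown cells and 409 and 716 in Jmjd2c knockdown cells, against 79.2, 69.5 and 34.4 in the controls. Its groups did not overlap against the controls, with changes of 4.42 ± 0.41 (SE; limma, adjusted p = 0.000117) and 2.91 ± 0.46 (SE; limma, adjusted p = 0.00651). Eomes and Mixl1, factors of mesendoderm, rose with Jmjd2b knockdown by 2.12 ± 0.31 (SE; limma, adjusted p = 0.00109) and 2.47 ± 0.37 (SE; limma, adjusted p = 0.00127). Among genes for basement membrane laid down by parietal endoderm, Lamb1 (1.40 ± 0.22, SE) and Sparc (0.86 ± 0.11, SE) rose with Jmjd2b knockdown (limma, adjusted p = 0.00148 and 0.000491). Nid1, which encodes nidogen of the same membrane, fell by 1.41 ± 0.14 (SE; limma, adjusted p = 0.000138), but the mean of its probe sets changed by -0.31 and was not called (adjusted p = 0.128). Lama1, a laminin chain named here after its values were seen, fell as well, by 0.89 ± 0.17 (SE; limma, adjusted p = 0.00411). Lamc1, Col4a1 and Col4a2 of the same membrane were not called with Jmjd2b knockdown. Their changes were 0.08, 0.93 and 0.80 (limma, adjusted p = 0.793, 0.0661 and 0.233). All Jmjd2b arrays of Col4a1 and Col4a2 lay above the controls. Since Lamb1 and Sparc rose while Nid1 and Lama1 fell, the membrane genes had no common direction. Otx2, a factor of anterior visceral endoderm and epiblast, rose in both knockdowns. Its change was 0.93 ± 0.18 (SE; limma, adjusted p = 0.00433) with Jmjd2b knockdown and 1.34 ± 0.20 (SE; limma, adjusted p = 0.00539) with Jmjd2c knockdown. Krt19, a keratin of simple epithelia, fell with Jmjd2c knockdown, with a change of -1.55 ± 0.22 (SE; limma, adjusted p = 0.00459). Both Jmjd2c calls were lost with array set as a block. The changes were then 0.72 for Otx2 (limma, adjusted p = 0.201) and -1.81 for Krt19 (limma, adjusted p = 0.132).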

How the data were processed

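Biotin-labelled cRNA of 8 samples was measured on 1 array each, per the labels' protocols. The authors deposited linear intensities, with 1 value for each probe set. Their probe summary, background correction and scaling are not given in the sources used. Groups and replicate numbers came from sample titles.

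Gene names came from GEO's platform annotation, where 34945 of 45101 probe sets had exactly 1 symbol, 932 had several, 9160 had no listed symbol and 64 were array controls. For each gene the probe set of highest mean log2(intensity + 16) over all 8 arrays was used, 16 being a pseudocount. Knockdown arrays counted in that mean, so a rise can itself favour a probe set. No filter on low values and no further normalization were applied. All 8 arrays entered a model of group means in limma 3.58.1 (R 4.3.3; lmFit, eBayes with trend). Tests were two-sided, adjusted by Benjamini-Hochberg over 18193 genes, with a threshold of 0.05, and the code was tested on simulated data. The number of arrays limits the precision, and the Jmjd2c knockdown had only 2.

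The endoderm genes and the other lists were chosen with earlier results of these data known. All measured genes of the set are named. The 6 genes with the smallest p per comparison were considered from the wider endoderm list, and the marker lists are given as sums. The alternatives were other pseudocounts, brighter genes only, probe set and normalization choices, fits of 2 groups, blocks, eBayes without trend, and leaving out each array. Array set as a block, every probe set as a row and fits of 2 groups with a replicate block were chosen after seeing the data.

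Whether replicate numbers pair arrays was checked from deviations from group means across genes. For same-numbered Jmjd2b and control arrays they correlated at 0.176, 0.111 and 0.116, and for differently numbered ones at -0.127 to 0.0164. Deviations sum to 0 within a group, so these 2 kinds of values are not independent. The numbers were taken to pair the arrays in the fits with a replicate block, although the labels state no pairing. The main fit did not use this pairing. For same-numbered Jmjd2c and control arrays they correlated at 0.0422 and 0.064. Promoter windows came from RefSeq (GRCm38.p6). Tables and figures were made with Python 3.11.15, pandas 2.3.3 and matplotlib 3.10.9.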

Additional observations from a re-analysis of the deposited data

Results flagged for a closer look

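Some signals appeared in probe sets that the comparisons did not use. For Lrp2, 1427133_s_at changed by 3.64 with Jmjd2b knockdown (limma over all probe sets, adjusted p = 6.93e-05) and by 3.38 with Jmjd2c knockdown (adjusted p = 0.00131), higher in 5 of 5 knockdown arrays than in the controls. For Emb, 1415857_at changed by 1.26 with Jmjd2b knockdown (limma, adjusted p = 0.0107), higher in 3 of 3 arrays. For Clic6, 1454866_s_at changed by 0.86 with Jmjd2b knockdown (limma, adjusted p = 0.00817), with 58.8, 66.6 and 63.9 in the Jmjd2b knockdown against 19.5, 35.01 and 30.1 in the controls. The brighter Clic6 probe set had a change of -0.19 (adjusted p = 0.407 in the fit by gene), so the 2 probe sets of this gene disagree.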

How the results depend on the processing

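Against the control, 11 endoderm genes were called with Jmjd2b knockdown and 5 with Jmjd2c knockdown. Lrp2, Spink1, Emb, Cited1, Foxa2 and Amn were called with Jmjd2b knockdown in every alternative that tested them, and Dab2 in all but the mean of its probe sets. The Jmjd2b count was 6 with only brighter genes, which drops dim genes from the test, and 8 to 13 when single arrays were left out. The Jmjd2c count was 8 after quantile normalization and 1 to 8 when single arrays were left out: 2 without control array 1, 1 without control array 3, 3 without Jmjd2c array 2 and 8 without Jmjd2c array 1. With array set as a block it was 0, where no control shares the set of the Jmjd2c arrays. Between the knockdowns 0 endoderm genes were called except without Jmjd2c array 2, which gave 2 (range 0 to 2). Apoa1 with Jmjd2b knockdown turned to 0.16 without _x_at probe sets. With replicate number as a block, the counts were 9, 6 and 0, and the calls of Dkk1 and Apoa1 were lost (pairing of Jmjd2b and control arrays), while Emb was called with Jmjd2c knockdown (1.03, limma, adjusted p = 0.0287).

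Over all genes, 4441 were called with Jmjd2b knockdown. Without single arrays it was 2624 to 5615, lowest without control array 3 and next lowest without Jmjd2b array 2 (2747), and every probe set as a row gave 7199. With Jmjd2c knockdown 1733 were called. The count was 874 with only the 2 groups, 1043 with array type and 6 with array set as a block. Without single arrays it was 462 to 2919: 853 without control array 1, 462 without control array 3 and 2919 without Jmjd2c array 1. Between the knockdowns 85 were called. The count was 136 at a pseudocount of 64, 152 with only brighter genes, 2 with only the 2 groups, 145 with the replicate block, 4 with array type and 5 with array set as a block, and 157 with every probe set. Without single arrays it was 2 to 788: 788 and 584 without Jmjd2c arrays 1 and 2, 2 and 46 without Jmjd2b arrays 2 and 1, and 28 to 35 without a control. Causes were not tested. Where a Jmjd2c array is left out, the other is assumed to vary like the other groups.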
